A study of Caenorhabditis elegans with 2 samples.

Results

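The 70 mitochondrial ribosomal protein genes of Caenorhabditis elegans were examined in a map of the transcription factor MED-1, made by chromatin immunoprecipitation followed by sequencing (ChIP-seq). They were taken from the 19985 protein-coding genes of the Ensembl WBcel235 annotation as those whose name starts with mrpl- or mrps- and a digit. Of the 70 genes, 41 encode proteins of the large subunit and 29 encode proteins of the small subunit. The other 19915 protein-coding genes served as the background. Of these, 19903 are nuclear and the rest belong to the mitochondrial genome. The series held 1 group with 2 biological replicates, both from hermaphrodite embryos of the middle stage, of strain OP391. That strain carries the transgene wgIs391, from which MED-1 is made with a C-terminal TY1, EGFP and FLAG tag, and unc-119(+) in the unc-119(ed3) background. The precipitation used an antibody to GFP on whole embryos. There was no second condition, so each value below was set against the other genes and not against another treatment. The promoter of the transgene and the tissue of the tagged protein were not given in the sources used here, and the control experiment that the labels name was not analysed here.

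MED-1 is a small GATA-type zinc finger factor of the early embryo. It acts in the blastomere that gives rise to mesoderm and endoderm, and there it acts upstream of the genes end-1 and end-3, which specify the intestine. Mitochondrial ribosomes are built from ribosomal RNA made in the mitochondrion and from proteins encoded in the nucleus, made in the cytosol and imported. They translate the few messages of mitochondrial DNA, which encode core subunits of the respiratory chain. In C. elegans, knockdown of mrps-5, a protein of the small subunit, is known to extend lifespan and to induce the mitochondrial unfolded protein response.

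For each gene, the strongest summit within 2 kb of any annotated transcript start was taken from each of 4 peak lists on the build ce11, another name of the assembly WBcel235. The signal of a peak is the authors' deposited value. It ranks peaks within 1 list, with rank 1 for the highest, and its scale differs between lists. The optimal list held 460 peaks, which the authors derived by the irreproducible discovery rate (IDR), with signals from 38.9 to 778. These were the strongest of the 30000 peaks of the pooled list, whose signals went down to 11.5. A place in the optimal list does not show a peak in both replicate lists. The respiratory chain gene nuo-2, named after its value had been seen, had an optimal summit at 51.1 and none within 2 kb in replicate 1. The list of replicate 1 held 2401 peaks and the list of replicate 2 held 30000. The pooled list and the replicate lists contain background peaks beside reproducible ones. The lists give no read counts, so the read depth is unknown and no counting error could be attached to a value. Embryos were taken whole, so a site bound in a few cells and a site bound weakly in many cells cannot be told apart.

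Of the 70 genes, 6 had a summit of the optimal list within 2 kb of a start (8.57%). The share among the other genes was 3.03%, or 604 genes. The 6 genes were mrps-28, mrpl-39, mrps-34, mrpl-23, mrpl-12 and mrps-6, in order of signal. All 6 summits lay upstream of the start of the mitochondrial ribosomal protein gene, while 75.0% of the optimal summits of other genes did so. Only 2 of the 6, those of mrpl-39 and mrps-34, lay within 500 bp of it. The DNA around 4 of these summits is printed first because it shows how different the sites were from each other. Of the features searched, one was the Sp1 site, CCACCC or CCGCCC. The next was the short word TGCGC. The last was the B box of tRNA genes, GGTTCGANNCC, an internal promoter element of RNA polymerase III. The last 2 were chosen after the data had been seen.

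The 4 windows span 60 bases on either side of the summit, on the forward strand of ce11, read 5′ to 3′ from the RefSeq genome sequence of WBcel235. Capitals mark matches to the 3 features on either strand. The mrpl-39 window is chrV:1821413-1821533, the mrps-34 window is chrIII:4542520-4542640, the mrpl-12 window is chrIII:10707157-10707277 and the mrps-28 window is chrV:19643155-19643275.
mrpl-39: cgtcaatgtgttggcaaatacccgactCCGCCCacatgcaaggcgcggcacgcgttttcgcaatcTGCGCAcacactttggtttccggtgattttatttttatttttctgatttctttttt
mrps-34: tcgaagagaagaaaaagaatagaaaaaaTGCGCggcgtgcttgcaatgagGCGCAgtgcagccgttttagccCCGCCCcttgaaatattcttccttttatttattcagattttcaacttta
mrpl-12: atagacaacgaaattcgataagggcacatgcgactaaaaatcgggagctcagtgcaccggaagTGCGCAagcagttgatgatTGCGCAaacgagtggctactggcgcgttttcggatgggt
mrps-28: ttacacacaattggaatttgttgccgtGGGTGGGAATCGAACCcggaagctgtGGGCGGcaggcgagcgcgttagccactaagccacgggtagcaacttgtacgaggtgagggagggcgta

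The mrpl-39 and mrps-34 windows each held an Sp1 site and TGCGC. The mrpl-12 window held TGCGC at 2 places, each read on both strands because the run TGCGCA is its own reverse complement. The mrps-28 window held 2 Sp1 sites on the reverse strand and, overlapping the first of them, a B box on the reverse strand. It held no TGCGC. The MED site, AAGTATAC or GAGTATAC, was in none of the summit windows of the 6 genes, which reached 100 bp to either side. A match is a match of letters and not a shown binding site.

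Of the 6 summits, 3 lay between genes, in or beside the promoter of a mitochondrial ribosomal protein gene. The strongest of these was that of mrpl-39, whose human counterpart is a protein of the large subunit related to threonyl-tRNA synthetase. The gene lies on chromosome V at 1821579 to 1823096, on the forward strand, and the peak spanned 1821311 to 1821634. Its optimal signal was 113, rank 89 of 460, with the summit 106 bp upstream of the start. The peak stood at 60.8 in replicate 1 (rank 73) and at 49.7 in replicate 2 (rank 147), with summits 3 and 1 bp from the optimal one. The region is shared, since gly-7, which encodes a glycosyltransferase of the N-acetylgalactosamine family, starts on the opposite strand 150 bp from the same summit.

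The mrps-34 peak was of the same kind. In mice, the counterpart of mrps-34 is needed for a stable small subunit. The gene lies on chromosome III at 4541420 to 4542452, on the reverse strand, and the peak spanned 4542418 to 4542741. Its optimal signal was 91.5 (rank 138), with the summit 128 bp upstream of the start. Replicate 1 gave a signal of 28.1 (rank 249) and replicate 2 gave 61.5 (rank 87), with summits 7 and 25 bp away. The opposite gene, cisd-3.1, named for the CDGSH iron-sulfur domain, starts 301 bp from the summit.

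The mrpl-12 peak was weaker and nearer to other genes. The protein is the counterpart of the bacterial stalk protein that recruits translation factors. The gene lies on chromosome III at 10707761 to 10708521, on the forward strand, and the peak spanned 10707055 to 10707378. Its optimal signal was 68.8 (rank 204), at 544 bp upstream. The signal was 26.1 in replicate 1 (rank 278) and 41.9 in replicate 2 (rank 189), with summits 5 and 1 bp away. The starts of Y39A1A.22 and Y39A1A.21, on the opposite strand, were closer, at 189 and 195 bp.

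The other 3 summits lay in introns of neighbouring genes, each within 200 bp of a gene for a small nucleolar RNA (snoRNA), a class that guides the modification of ribosomal RNA. Thus 50% of the 6 lay in the body of another gene alone, against 11.6% of the optimal summits of 604 other genes. Of those of the other genes, 72.4% lay between genes and 16.1% in the gene's own body. The difference was not tested. The peak near mrps-28, which encodes a protein of the small subunit, was the strongest of the 6. It spanned 19643053 to 19643376 on chromosome V, with an optimal signal of 208 (rank 29). Replicate 1 gave 96.0 (rank 29) and replicate 2 gave 109 (rank 32), with summits 0 and 3 bp away. It lay in an intron of Y43F8C.7 beside the snoRNA gene Y43F8C.22, 1024 bp upstream of mrps-28 and 815 bp from the start of Y43F8C.7.

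The peak near mrpl-23, the counterpart of a bacterial protein at the exit of the peptide tunnel, spanned 6212677 to 6213000 on chromosome I, in an intron of fars-1. That gene encodes a subunit of cytosolic phenylalanyl-tRNA synthetase and ends 95 bp before mrpl-23 on the same strand. The peak lay beside the snoRNA gene T08B2.13. Its optimal signal was 90.1 (rank 139), at 954 bp upstream of mrpl-23 and 1377 bp downstream of the nearest transcript start of fars-1. Replicate 1 gave 36.7 (rank 172) and replicate 2 gave 51.3 (rank 136), with summits 1 and 17 bp away. The peak was counted for mrpl-23 as the gene with the nearest start.

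The weakest optimal peak was that of mrps-6, whose bacterial counterpart is a protein of the small subunit. It spanned 4175898 to 4176221 on chromosome I, in an intron of rpn-8, which encodes a subunit of the proteasome lid, beside the snoRNA gene R12E2.17. Its signal of 41.1 (rank 422) was close to the lowest of the list, and the summit lay 1286 bp upstream of mrps-6 and 741 bp from the start of rpn-8. It stood at 16.1 in replicate 1 (rank 969) and at 22.2 in replicate 2 (rank 551), with summits 34 and 13 bp away. Its score in the q-value column was 0.244, against 2.13 to 2.45 for the other 5.

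**Figure D1:**
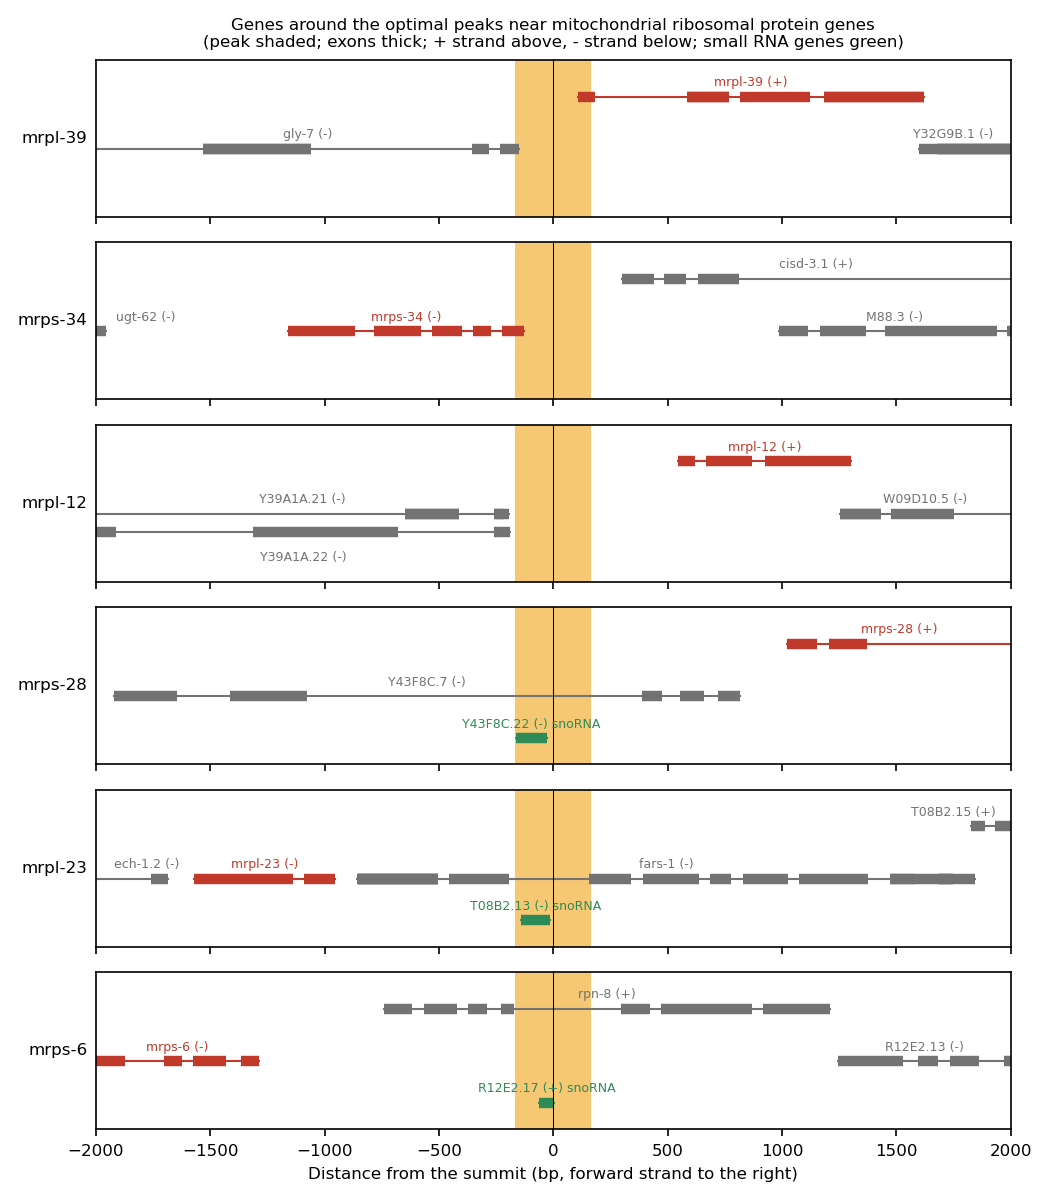
Annotated genes around the 6 optimal peaks, by distance from the summit in bp with the forward strand to the right. Shading marks the peak, thick bars mark exons, red marks the mitochondrial ribosomal protein gene and green marks snoRNA genes; the summits of mrpl-39 and mrps-34 lay 106 and 128 bp upstream of the start, while those of mrps-28, mrpl-23 and mrps-6 lay in introns of other genes.

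How many genes counted depended on how a peak was given to a gene. Among optimal peaks, 3 of 6 genes (50%) had their peak beside a small RNA gene, against 178 of 604 other genes (29.5%). In 3 of 6 the peak was nearer to the start of another gene, against 42.9% of the others. When a peak counted only for the gene with the nearest start, 3 mitochondrial ribosomal protein genes were left, mrpl-23, mrpl-39 and mrps-34, beside 1.77% of other genes. When peaks at small RNA genes (snoRNA, snRNA, tRNA and rRNA, within 200 bp) were left out, 3 genes were left, mrpl-12, mrpl-39 and mrps-34, beside 2.14% of other genes. Within 500 bp, 2 genes were left beside 1.48% of other genes, and within 1 kb there were 4 beside 2.0%. With a score of at least 2 in the q-value column, 5 genes were left beside 1.34%. The 2 genes present under every one of these rules were mrpl-39 and mrps-34.

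In the pooled list, 61 of the 70 genes had a summit within 2 kb (87.1%), against 73.5% of the other genes. Since most genes of any kind lie near one of the 30000 pooled peaks, the rank of the strongest summit says more than its presence. The median rank of the strongest pooled summit was 4382 over the 61 genes and 9564 over the 14646 other genes with a summit. The median pooled signals were 20.7 and 17.1. Among the 1000 strongest pooled peaks, 12 of the 70 genes had a summit (17.1%), against 6.01% of other genes. Among the 2000 strongest, 22 had one (31.4%), against 10.5%, and among the 5000 strongest 34 did (48.6%), against 22.5%. With the distance set to 500 bp, 10 genes had a summit among the 2000 strongest (14.3%), against 4.96%, and at 1 kb 14 did (20%), against 7.05%. With nearest genes only, 12 genes (17.1%) had a summit among the 2000 strongest, against 6.94%. The share was therefore above the background at each of these depths, and no test of this difference was made.

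**Figure D2:**
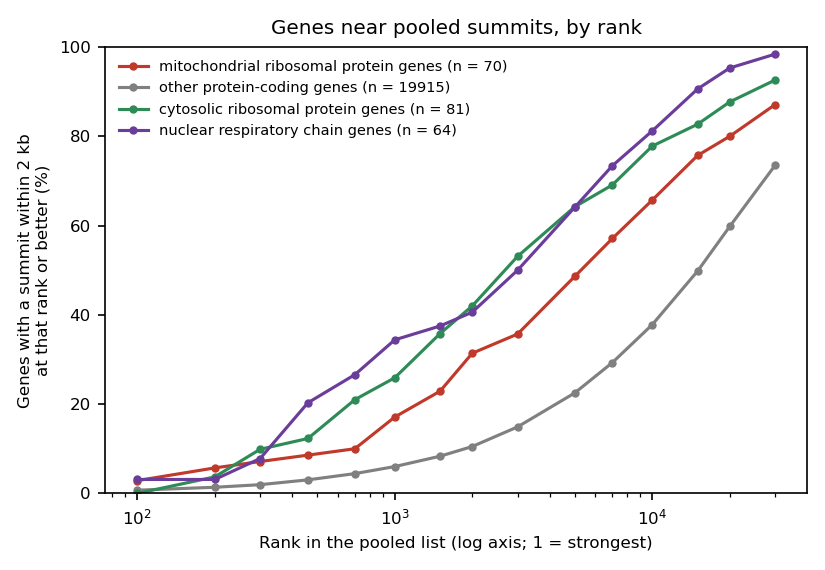
Share of genes with a pooled summit within 2 kb at a given rank or better, in percent, against rank on a log axis, for the 70 mitochondrial ribosomal protein genes, the other protein-coding genes, 81 cytosolic ribosomal protein genes and 64 nuclear respiratory chain genes. At rank 2000 the shares were 31.4%, 10.5%, 42.0% and 40.6%.

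Below the optimal list the signals fell gradually from gene to gene. The 55 genes with a pooled but no optimal summit had pooled signals from 12.2 to 33.0, with a median of 20.2. The first of them was mrpl-28, which encodes a large subunit protein, at a pooled signal of 33.0 (rank 661) and 146 bp upstream of its start. It stood at 17.4 in replicate 1 and at 17.0 in replicate 2. The large subunit gene mrpl-34 followed at 32.1 (rank 717), 1180 bp upstream and in a coding exon of lid-1, the gene with the nearer start. The large subunit gene mrpl-45, whose human counterpart anchors the ribosome to the inner membrane, stood at 32.1 as well (rank 724), 349 bp upstream. The start of Y119D3B.12 was nearer to that summit. The fourth, mrps-12, stood at 32.0 (rank 729). In bacteria, its counterpart sits at the decoding centre and carries mutations to streptomycin resistance. Its summit lay in its own coding sequence, 100 bp downstream of the start. The last gene inside the optimal list was thus mrps-6 at 41.1 and the first outside was mrpl-28 at 33.0.

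Of the 41 large subunit genes, 34 had a pooled summit (82.9%), with a median rank of 3996, and 3 had an optimal one (7.32%). Of the 29 small subunit genes, 27 had a pooled summit (93.1%), with a median rank of 4406, and 3 had an optimal one (10.3%). Among the 2000 strongest pooled peaks, the counts were 13 (31.7%) and 9 (31.0%). The 2 subunits thus had similar shares among the strongest peaks, and their difference was not tested. The gene mrps-5, chosen after the values had been seen because of its known role in lifespan, had a pooled signal of 16.8 (rank 10233). Its summit lay 1767 bp upstream, in a coding exon of sel-1, the gene with the nearer start.

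**Figure D3:**
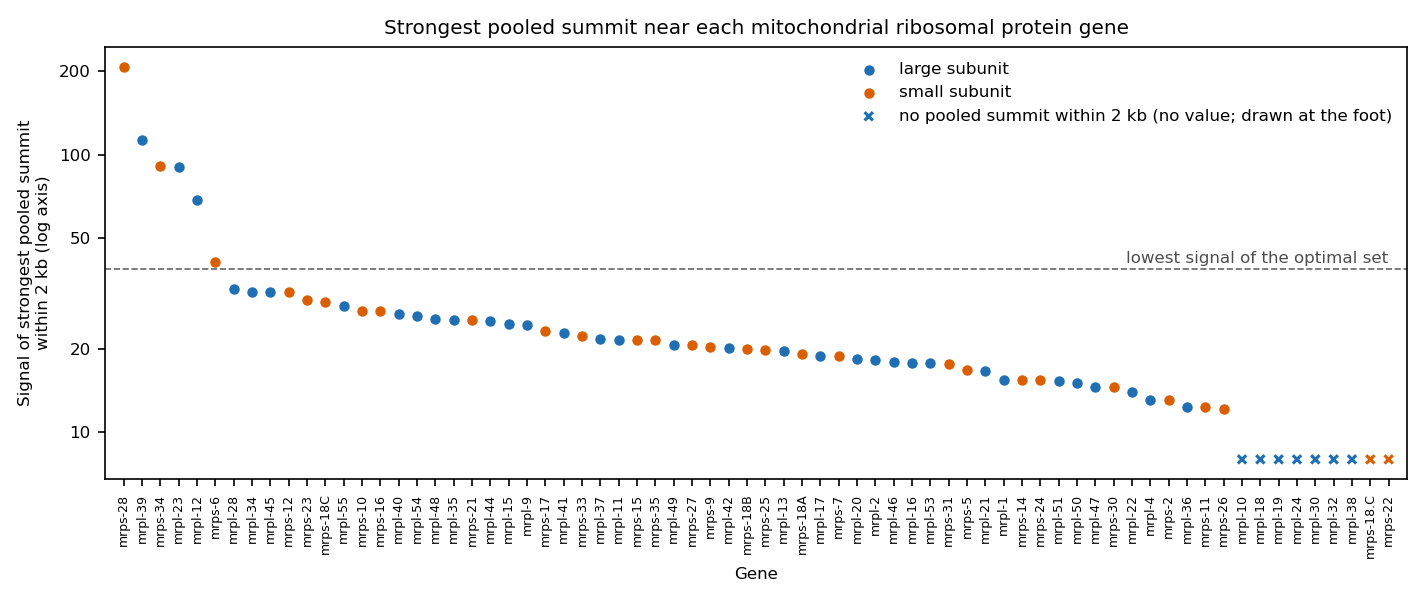
Signal of the strongest pooled summit within 2 kb of each of the 70 genes, on a log axis, in falling order, with the large subunit in blue and the small subunit in orange. Crosses at the foot are the 9 genes with no pooled summit and carry no value; 6 genes lie above the dashed line, the lowest signal of the optimal list at 38.9, and the rest lie at 33.0 or below.

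No pooled summit was found within 2 kb of 9 genes. They were mrpl-10, mrpl-18, mrpl-19, mrpl-24, mrpl-30, mrpl-32, mrpl-38, mrps-18.C and mrps-22, so 7 belong to the large subunit. Of these, mrpl-10, mrpl-19, mrpl-24 and mrps-22 had a summit in the list of replicate 2, at signals of 6.79, 11.1, 10.5 and 10.8. The other 5 had none in any list. The annotation holds both mrps-18C and mrps-18.C, on different chromosomes. The first, named after its value had been seen, had a pooled signal of 29.6 (rank 944) in a coding exon of eri-9, 687 bp upstream, so the 2 genes with nearly the same name differed. A gene without a summit was one whose neighbourhood held none of the 30000 peaks kept, which does not show that it was free of MED-1.

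In the replicate lists, 24 of the 70 genes had a summit in replicate 1 (34.3%), against 11.9% of other genes. In replicate 2, 60 genes had one (85.7%), against 74.4%. The shorter list of replicate 1 has fewer background peaks, so these shares are not comparable with each other. The median rank of the 24 genes in replicate 1 was 1100, against 1044 for the other genes with a summit there. In replicate 2 the median ranks were 5698 and 9727. Within the list of replicate 1, then, the genes that had a summit ranked no higher than the other genes that had one. Among the 460 strongest peaks of each replicate, 6 genes had a summit in replicate 1 (8.57%), against 2.87% of other genes. In replicate 2 there were 5 (7.14%), against 2.93%. The 5 best ranked genes were the same in both, namely mrps-28, mrpl-39, mrpl-23, mrps-34 and mrpl-12, although their order differed.

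Both replicate lists held a summit for 22 genes, against 10.7% of other genes. The strongest summits of the 2 replicates lay within 200 bp of each other for 13 of the 22 (59.1%), against 47.0% of the 2128 other genes. Over the 22 genes, which share the same libraries, Spearman's rho of the 2 signals was 0.589. The 6 genes of the optimal list are among them. That list was derived by IDR from the replicate and pooled lists, so this value is no independent measure of agreement between the replicates. Over the 16 without an optimal summit rho was 0.0588, but for 9 of these the strongest summits of the replicates lay more than 200 bp apart, so it mostly set different peaks side by side. Of the 24 genes with a pooled summit and one in replicate 1, 20 had the 2 summits within 200 bp (83.3%), and of the 56 with one in replicate 2, 36 did (64.3%). The gene mrpl-34 had rank 396 in replicate 1, with the summit 1180 bp upstream, and rank 5575 in replicate 2, with a different summit 592 bp upstream. A further 2 genes had a summit in replicate 1 alone and 38 in replicate 2 alone. Another 3, mrpl-22, mrpl-47 and mrps-11, had a pooled summit and none in either replicate; they are named after their values had been seen.

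**Figure D4:**
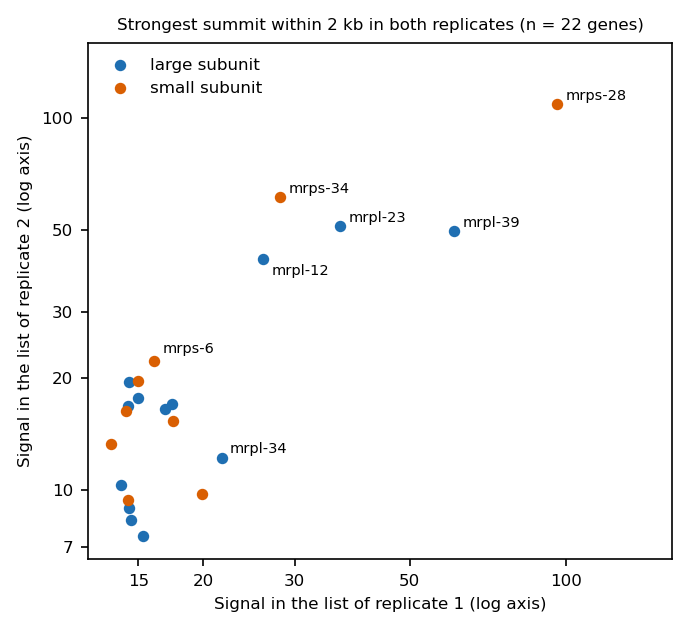
Signal of the strongest summit within 2 kb in replicate 1 against replicate 2, both on log axes, for the 22 genes with a summit in both lists, with the large subunit in blue and the small subunit in orange. The 5 strongest genes, mrps-28, mrpl-39, mrpl-23, mrps-34 and mrpl-12, are highest in both replicates. In replicate 2 the lowest of them, mrpl-12 at 41.9, is well above the next gene, mrps-6 at 22.2, while in replicate 1 mrpl-12 at 26.1 is followed closely by mrpl-34 at 21.7.

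Whether the summits lay closer to the starts of these genes than to those of other genes depended on the list. The median distance of the strongest pooled summit was 631 bp over the 61 genes and 850 bp over the other genes, and in replicate 2 it was 624 and 876 bp. In the optimal list it was 749 bp over the 6 genes and 580 bp over the others, and in replicate 1 it was 774 and 690 bp. The share within 500 bp was 33.3% against 46.9% in the optimal list, 41.7% against 41.9% in replicate 1 and 36.7% against 32.7% in replicate 2. In the pooled list the summit lay within 500 bp for 26 of 61 (42.6%), against 33.8%, and within 200 bp for 16 (26.2%), against 15.1%. It lay upstream of the start for 38 (62.3%), against 55.9%. The summit lay between protein-coding genes for 24 of 61 (39.3%), against 40.5%. It lay in the gene's own body for 17 (27.9%), against 37.0%, and in the body of another gene alone for 20 (32.8%), against 22.5%. For 31 of the 61 (50.8%), the start of another gene was nearer, against 29.9%. Some summits were shared, since 59 distinct peaks served the 61 genes. The neighbours mrpl-1 and mrps-24 had 1 peak in common, at rank 13418, and mrps-2 and mrpl-4 another, at rank 22332.

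**Figure D5:**
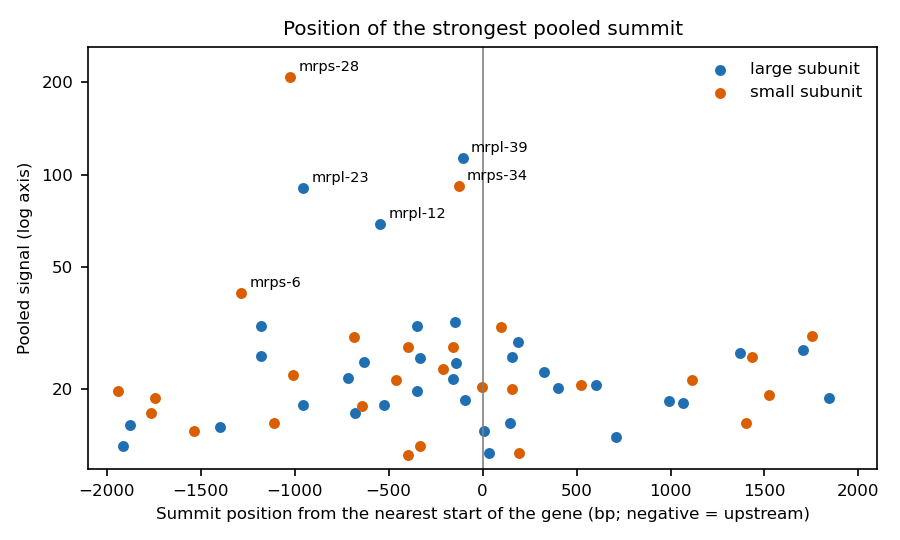
Position of the strongest pooled summit from the nearest start of each of 61 genes, in bp with upstream negative, against its pooled signal on a log axis, with the large subunit in blue and the small subunit in orange. The 6 labelled optimal summits lie upstream, and 26 of the 61 summits lie within 500 bp of a start.

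The genes themselves lay in a compact setting, which was measured beside these counts. Their median length was 1126 bp, against 2030 bp for other genes. The next gene upstream was on the same strand and lay within 1 kb, or overlapped, for 34 of the 70 (48.6%), against 30.6% of others. Close spacing on 1 strand is a feature of operons in C. elegans, but operons were not called here. A start on the opposite strand lay within 1 kb for 29 (41.4%), against 19.1%. Among those 29 genes, 5 had an optimal summit (17.2%), against 5.93% of other genes with such a neighbour. Among the 41 without one, 1 did (2.44%), against 2.28%. The median pooled rank was 2561 with an opposite start and 6298 without, against 7421 and 10160 in other genes. Of the 34 genes with a close gene upstream on the same strand, 1 had an optimal summit (2.94%), namely mrpl-23, against 2.63% of other genes in that class, and the median pooled ranks were 7418 and 9787. Of the 36 without one, 5 did (13.9%), against 3.13%, with median ranks of 3054 and 9455. Other genes thus differed little between the classes with and without a close gene upstream on the same strand. Between those with and without an opposite start they differed more, at 5.93% and 2.28%. All the genes with an optimal summit except mrpl-23 thus had a neighbour starting nearby on the opposite strand and no gene just upstream on their own. The part of this setting in the difference from other genes was not tested.

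The chromosomes were unequally represented. Chromosome III held 22 of the 70 genes (31.4%), against 13.1% of other genes, and the X chromosome held none, against 13.7%. Among the other genes, optimal summits were most frequent on chromosome III, at 4.47%, followed by I at 3.91% and II at 3.29%. The shares were 2.64% on X, 2.17% on IV and 2.15% on V. With other genes limited to the autosomes, 3.03% had an optimal summit and the median pooled rank was 9492, against 3.03% and 9564 for all other genes. That limit left out the genes of the mitochondrial genome together with X, so the effect of X alone was not shown. It also did not address the larger share of the 70 genes on chromosome III, whose part was not tested.

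Promoters, taken as 250 bases before to 50 bases after the start, were searched for fixed words on both strands. The MED site was in 1 of the 70 (1.43%), that of mrps-24, against 1.15% of 19903 other promoters. The GATA words AGATAA and TGATAA were in 15 (21.4%) and 19 (27.1%), against 21.2% and 30.3%. The longer word CTTATCA, which contains the reverse complement of TGATAA, was in 3 (4.29%), against 9.24%. The Sp1 site was in 7 (10%), against 13.0%. The E2F site, spelled TTCCCGC, or else TTGGCGC, or else TTCGCGC, or else TTGCCGC, was in 12 (17.1%), against 9.2%. The spellings with GCGC can overlap TGCGC. The forkhead word TGTTTAC was in 4 (5.71%) and the E-box CACGTG in 5 (7.14%), against 4.77% and 5.84%. The word TGCGC was in 19 (27.1%), against 18%. The median GC content of these promoters was 32.2%, against 34.2% for other promoters.

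Within 100 bp of the strongest pooled summit, none of the 61 genes had a MED site, against 0.745% of other genes and 3 of the 440 optimal peaks of the nuclear chromosomes (0.682%). The GATA word AGATAA was in 5 of 61 windows (8.2%), against 11.4% for other genes, TGATAA in 8 (13.1%), against 16.7%, and CTTATCA in 1 (1.64%), against 3.36%. The E2F site was in 9 (14.8%), against 8.22%, and TGCGC was in 16 (26.2%), against 15.7%. The Sp1 site was in 6 (9.84%), against 8.39%, the forkhead word in 2 (3.28%), against 2.67%, the E-box in 3 (4.92%), against 3.3%, and the B box in 2 (3.28%), against 1.24%. Among the 440 optimal peaks, TGCGC was in 50.9%, the Sp1 site in 25.9% and the B box in 22.0%. Of the 6 optimal peaks near mitochondrial ribosomal protein genes, TGCGC was in those of mrpl-39, mrpl-23, mrps-34 and mrpl-12, and the Sp1 site in those of mrps-28, mrpl-39 and mrps-34. The B box was in that of mrps-28 and the E2F site in that of mrps-6. None held a GATA, forkhead or E-box word, but these words were uncommon among the 440 optimal peaks too. There AGATAA was in 5.91%, TGATAA in 8.18%, CTTATCA in 1.14%, the forkhead word in 3.41% and the E-box in 2.95%. The E2F site was in 15.9% of the 440.

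The 6 related gene lists gave the setting for these shares. Cytosolic ribosomal proteins had optimal summits at 10 of 81 genes (12.3%), with rps-28 at a signal of 98.9, rpl-3 at 89.6, rpl-11.1 at 83.2 and rpl-35 at 62.3. For 5 of the 10, rpl-11.1 among them, another gene started nearer to the summit. The median pooled rank of the list was 2206. Nuclear genes of the respiratory chain, whose complexes also contain the products of mitochondrial translation, had them at 13 of 64 (20.3%), with a median pooled rank of 2915. The strongest were ndua-2 of complex I at 230, ucr-11 of complex III at 145, cyc-1, which encodes cytochrome c1, at 66.8, and ndua-1 at 58.4. For 6 of the 13, ndua-2 and ucr-11 among them, another gene started nearer. Some peaks were counted more than once, since nduc-2 and cox-6B share 1 at 48.1. Likewise cyc-2.1 shares its peak, at 54.7, with rpl-20 of the cytosolic list. Both lists were thus above the 8.57% of the mitochondrial ribosomal protein genes. Among the 230 strongest optimal peaks the order was the other way. There the mitochondrial ribosomal protein genes stood at 7.14%, against 3.7% of the cytosolic list and 4.69% of the respiratory chain list. Their optimal summit lay beside a small RNA gene for 3 of 6, against 0 of 10 and 1 of 13. These differences were not tested.

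The smaller lists each had 2 genes with an optimal summit. Among 32 aminoacyl-tRNA synthetases (6.25%), ears-2 stood at 303, with the summit 34 bp upstream, and fars-1 at 90.1 through the peak it shares with mrpl-23. Among 17 import genes (11.8%), tomm-20, a receptor of the outer membrane, stood at 68.0, and timm-23, a channel of the inner membrane, at 45.6 beside a tRNA gene. Among 17 genes for mitochondrial DNA and its expression (11.8%), mtss-1, the single-stranded DNA-binding protein, stood at 208, and mma-1 at 43.7 beside a snoRNA gene. Among 10 chaperones and proteases (20%), the chaperonin hsp-60 stood at 158 and the protease clpp-1 at 77.4, and both summits, 646 and 1118 bp upstream, were nearer to another gene. Optimal summits were thus found in each of the 6 lists, and in none did they cover more than 20.3% of the genes.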

How the data were processed

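Peak lists of MED-1 ChIP-seq in whole embryos, 2 replicates of 1 group, were used on ce11. Per the labels, chromatin was sonicated and precipitated with anti-GFP. Per the deposited file lists, the authors called peaks against a control in each replicate and in both pooled, and derived the optimal list from these 3 by the irreproducible discovery rate (IDR). The aligner, the peak caller and the IDR cutoff were not given in the sources used here. Signal is the authors' deposited value per peak. The q-value column was used as a deposited score, since it falls below 0 in the pooled list. Genes came from Ensembl release 115. Python 3.11.15, pandas 2.3.3, numpy 2.4.6 and matplotlib 3.10.9 assigned the strongest summit within 2 kb of any transcript start. The assignment was tested on 200 seeded genes. Genes named in the text are those with an optimal summit, the 10 strongest in the pooled list, the 5 best in each replicate, those with no pooled summit, and up to 4 per other list; exceptions are marked or share a peak. Of the fixed names, 17 of 20 for mitochondrial DNA and its expression and 10 of 11 for chaperones and proteases were found. Members, lists and words were chosen with earlier results of these data known. No test between gene sets was made.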

Additional observations from a re-analysis of the deposited data

How the results depend on the processing

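Over 46 alternatives, 32 values were within 1.5 times the count, or 1 SD between the replicates, of the value in the text and 14 were not. For the median signal and rank that SD comes from lists of different length and scale, so values within it say nothing of stability. The 6 genes with an optimal summit became 2 at 500 bp, 3 with nearest genes only and 3 without peaks at small RNA genes. They were 5 to 6 when 1 replicate was left out and its partner's strongest peaks were used; mrps-6 was lost without either, and mrpl-34 came in without replicate 2. The 22 genes among the 2000 strongest pooled peaks became 12 (17.1%) with nearest genes only, beside 6.94% of other genes. They became 10 (14.3%) at 500 bp and 14 (20%) at 1 kb, beside 4.96% and 7.05%. There were 12 (17.1%) among the 1000 strongest and 34 (48.6%) among the 5000 strongest, beside 6.01% and 22.5%. Without replicate 1 there were 15 (21.4%) beside 10.4%, and without replicate 2 there were 23 (32.9%) beside 10.1%. The 26 genes with a pooled summit within 500 bp became 16 within 200 bp, and 10 to 22 without 1 replicate. Without 1 replicate, the 61 genes with a pooled summit became 24 to 60, the median signal of 20.7 became 12.1 to 15.7 and the median rank of 4382 became 1100 to 5698. These signals are on other scales than the pooled one and are no change in size. The lower count and rank came from the shorter list of replicate 1, with 2401 peaks. No paired analysis was possible because there is 1 group. Read depth is unknown, so no limit for weak sites could be set, and with 2 replicates no spread beyond these 2 values could be measured.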
